A study of Homo sapiens with 12 samples.

Results

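The transcription factor complex AP-1 and its companions in the immediate early response were followed through 10 genes in IMR90 cells, an established line of human lung fibroblasts. The members were taken by name: FOS, FOSB, FOSL1 and FOSL2 of the FOS family, JUN, JUNB and JUND of the JUN family, the AP-1 partner ATF3, the zinc finger factor EGR1, and IER3. All 10 were found among the 61541 gene identifiers of the files, and 10 of 10 passed the filter on low counts, which kept 12329 genes for testing. In the study, messenger RNA was sequenced after cells had received doxorubicin, an anthracycline that damages DNA and induces senescence, for 24 h, with culture for at least 8 days afterwards. The 4 groups were a gel of 2 kPa at 250 nM, plastic at 250 nM, a gel of 2 kPa at 100 nM and plastic at 100 nM, with 3 libraries each. All groups share the wild-type IMR90 line and the drug, and no untreated cells were analysed here, so the values compare substrates and doses and not drug with vehicle. The series asks, by its title, whether a soft or a stiff substrate gives doxorubicin-treated fibroblasts a different secretome and transcriptome.

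Immediate early genes are switched on within minutes of a stimulus, such as serum, stretch, stress or DNA damage, from factors already present in the cell, and their messenger RNAs are short-lived. FOS and JUN family proteins pair through leucine zippers to form AP-1, which binds a short palindromic site in the control regions of genes for matrix metalloproteinases, cytokines and cell cycle regulators. In fibroblasts the RAS to ERK pathway acts on FOS and EGR1 through ternary complex factors and SRF, the kinase JNK acts on JUN protein, and phosphatases of the DUSP family switch the kinases off again. In bulk samples, fewer cells making a message and less message in each cell cannot be told apart.

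Promoter windows of RefSeq (GRCh38.p14), from 250 bases before a gene's start to 50 after it, were found for 8 of the 10 members. IER3 and FOSL1 had no entry. The windows of EGR1, JUN and ATF3 are shown as examples with matches to the motifs searched. Those of JUND and FOSL2 hold matches too and are not shown. EGR1, JUN and ATF3 also each stood far apart from their group in single libraries, as did JUND in replicate 1 of gel at 250 nM. Any link between motif and value was not tested. In EGR1 (chr5:138465229-138465528, plus strand) the capitals mark a GC-rich match to the EGR site and a pair of CArG boxes, the site of SRF. In JUN (chr1:58783998-58784297, minus strand) and ATF3 (chr1:212565157-212565456, plus strand) they mark an element of the cAMP response type, which JUN and ATF factors bind.
EGR1: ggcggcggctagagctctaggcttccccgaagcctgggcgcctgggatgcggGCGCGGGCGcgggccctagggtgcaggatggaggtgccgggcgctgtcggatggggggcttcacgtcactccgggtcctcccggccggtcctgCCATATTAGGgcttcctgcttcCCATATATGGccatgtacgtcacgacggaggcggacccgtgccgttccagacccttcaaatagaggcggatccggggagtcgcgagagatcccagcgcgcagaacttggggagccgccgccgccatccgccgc
JUN: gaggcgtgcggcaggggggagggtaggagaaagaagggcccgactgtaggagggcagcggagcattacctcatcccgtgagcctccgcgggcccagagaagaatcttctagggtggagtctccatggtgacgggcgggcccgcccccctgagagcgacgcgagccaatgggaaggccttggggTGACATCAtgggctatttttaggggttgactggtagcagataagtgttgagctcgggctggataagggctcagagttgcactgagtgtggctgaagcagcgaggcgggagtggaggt
ATF3: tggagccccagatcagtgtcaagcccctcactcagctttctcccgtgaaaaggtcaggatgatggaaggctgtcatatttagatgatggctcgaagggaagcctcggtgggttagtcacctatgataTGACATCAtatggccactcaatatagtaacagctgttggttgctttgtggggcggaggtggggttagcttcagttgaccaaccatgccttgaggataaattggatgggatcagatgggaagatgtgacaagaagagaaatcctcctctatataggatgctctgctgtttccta

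Each motif was searched on both strands, and distances count from the RefSeq start. The EGR1 window held the CArG boxes CCATATTAGG from -105 to -96 and CCATATATGG from -83 to -74, and GCGCGGGCG from -198 to -190. TGACATCA lay from -67 to -60 in JUN and from -123 to -116 in ATF3, TGACGTCA from -200 to -193 in JUND, and the AP-1 site TGACTCA from 5 to 11 bases after the start in FOSL2. The windows of FOS, FOSB and JUNB, and the other ATF3 window, had no match. Sequence outside the windows was not searched, so a gene without a match may still hold such a site further away. Of 35116 RefSeq windows, 1.29% held a CArG box, 7.72% held TGACNTCA, 7.71% held TGANTCA and 9.43% held GCGNGGGCG. These matches describe letters in a window and not bound sites.

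Library totals ran from 2229069 to 2730309 expected counts at 250 nM and from 5887056 to 7351916 at 100 nM, and the 10 members took between 0.0538% and 0.221% of a library. Dose and library set cannot be told apart, because the 250 nM libraries were also the shallow ones and carry other file names. The labels do not state that replicates came from separate cultures, so p-values reflect only the spread between these samples, which may be technical. Fibroblast markers were all tested, 10 of 10, led by FN1 at a mean of 6822 CPM (counts scaled to the library's effective size). Of the other markers, 0 of 10 leukocyte genes passed the filter, 5 of them at 0 in every library, 1 of 8 endothelial genes (TEK, 20.8 CPM), 3 of 8 epithelial genes (KRT18, 72.6 CPM) and 2 of 6 pericyte and smooth muscle genes (CSPG4, 53.9 CPM). A pair of libraries stood apart. The share of counts in 3 ribosomal DNA repeat loci of chromosome 21 was 13.2% in replicate 1 of gel at 250 nM (95% Wilson interval 13.1% to 13.2%, for counting error only) and 14.3% in replicate 1 of plastic at 100 nM (14.3% to 14.4%), against 24.2% to 30.7% in the other 10. Replicate 1 of gel at 250 nM also had the most mitochondrially encoded messenger RNA, 8.11% of protein-coding counts against 2.58% to 5.12% elsewhere, and correlated least with the rest of its group (mean r across genes 0.845, against 0.895 to 0.958).

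All 10 members were expressed on both substrates and at both doses. On the scale of TPM, which corrects for transcript length, IER3 had the highest level, 243 ± 229 TPM (mean ± SD, n = 12 libraries), with a range from 123 to 951. JUN followed with 82.1 ± 43.6 TPM and EGR1 with 65.6 ± 36.5 TPM. JUNB averaged 21.3 ± 9.45 TPM, FOS 19.8 ± 11.4, JUND 13.9 ± 6.71 and FOSL1 12.9 ± 3.56. The lowest were FOSB with 10.6 ± 9.00 TPM, ATF3 with 9.46 ± 6.81 and FOSL2 with 5.76 ± 1.16. The means of neighbours in this order differed by less than the larger of their SDs, except those of EGR1 and JUNB, and the ranges of all neighbours overlapped. FOSB and ATF3 varied most, with the highest library 16.5-fold and 17.8-fold above the lowest, and FOSL2 least, with 2.25-fold.

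No member was called between substrates in the test across all genes. At 250 nM 0 of 10 were called between gel and plastic, where 0.00811% of all genes were called, and at 100 nM 0 of 10, where 0.227% were called (edgeR, Benjamini-Hochberg adjustment over all tested genes, threshold 0.05). Averaged over both doses 0 of 10 were called, against 0.754% of all genes. At an unadjusted p under 0.05 the members counted 0 of 10 in each of these comparisons, against 10.0%, 9.90% and 12.5% of all genes. Gel and plastic libraries overlapped in 10 of 10 members at each dose, while 15.1% of all genes at 250 nM and 19.0% at 100 nM had groups that did not overlap. The median log2 difference of the members was 0.30 at 250 nM, with 8 positive and 2 negative, and 0.08 at 100 nM, with 5 positive and 5 negative. Over all tested genes the medians were -0.02 and -0.01. Without replicate 1 of gel at 250 nM, the log2 differences at that dose were 0.38 for JUNB, 0.14 for JUND and 0.28 for ATF3. The other members were then negative, with FOS -0.34, FOSB -0.39, FOSL1 -0.04, FOSL2 -0.17, JUN -0.20, EGR1 -0.42 and IER3 -0.14. In the test of whether the gel contrast differed between doses, 0 of 10 members and 0% of all genes were called, with 0 members and 6.32% of all genes at an unadjusted p under 0.05. DESeq2 also called 0 of 10 members in each of these comparisons, and edgeR with no filter on low counts called 1 at 250 nM and 2 over both doses, named with their values below. That fit called 0.802% of its 28787 genes at 250 nM and 1.99% over both doses, and 1.82% and 4.45% of the 12329 genes that pass the filter.

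**Figure D1:**
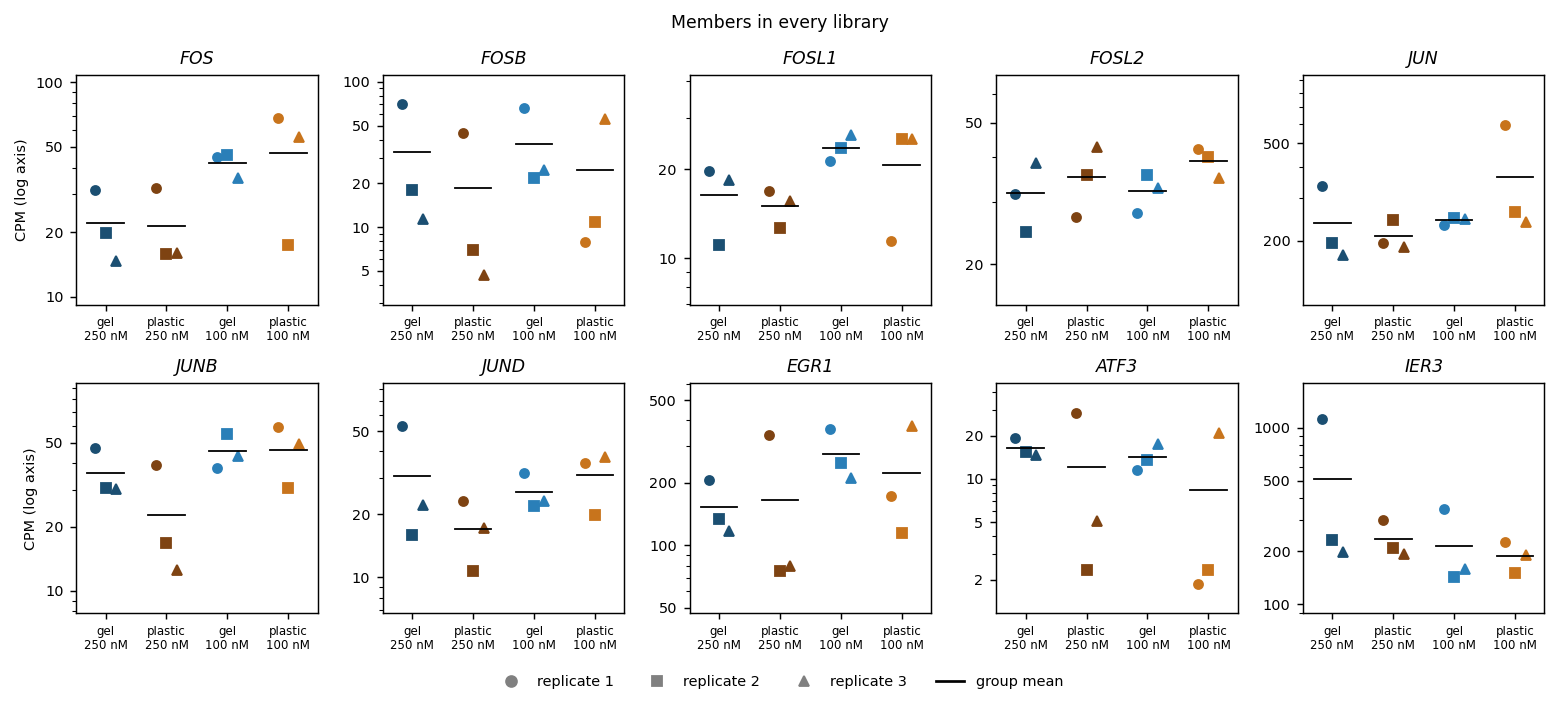
Level of each member in every library, in CPM on a log axis, by group; the marker shape gives the replicate and the bar the mean of the 3 libraries. In FOSB, ATF3, EGR1 and IER3 single libraries stand far above the rest of their group, for example IER3 at 1116 CPM in replicate 1 of gel at 250 nM.

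FOS, the founding member of the family and a partner of JUN in AP-1, was not called between substrates. At 250 nM its level was 31.6, 19.8 and 14.7 CPM in replicates 1, 2 and 3 on gel, against 32.1, 15.9 and 16.0 CPM on plastic. The values at 100 nM were 44.8, 45.7 and 35.6 CPM on gel, against 68.0, 17.4 and 55.8 CPM on plastic. Gel libraries lay within the range of plastic at 100 nM, and replicate 2 of plastic was the low one of its group. The log2 difference, gel over plastic, was 0.05 at 250 nM (95% interval -0.94 to 1.04; edgeR, adjusted p = 0.981) and -0.16 at 100 nM (-1.06 to 0.73; adjusted p = 0.938).

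FOSB, which is induced with FOS and also makes a truncated form in brain, was the most uneven member. At 250 nM it had 70.1, 17.9 and 11.3 CPM on gel, against 44.1, 7.01 and 4.69 CPM on plastic. The lower dose gave 66.5, 21.6 and 24.6 CPM on gel, against 7.97, 10.8 and 55.2 CPM on plastic. In each group 1 library stood well above the other 2, and the groups overlapped at both doses. The log2 difference was 0.85 at 250 nM (95% interval -1.14 to 2.83; edgeR, adjusted p = 0.807) and 0.61 at 100 nM (-1.24 to 2.45; adjusted p = 0.871). At 250 nM the direction turned, to -0.39, when replicate 1 of gel was left out, and the difference was 2.53 when replicate 1 of plastic was (edgeR, adjusted p = 0.970 and 0.538). With no filter on low counts, edgeR called FOSB over both doses, at a log2 difference of 0.71 (adjusted p = 0.0386).

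FOSL1 and FOSL2 encode FRA1 and FRA2, FOS family proteins that lack the strong transactivation domain of FOS, and were the steadiest members. At 250 nM FOSL1 had 19.7, 11.1 and 18.5 CPM on gel, against 16.9, 12.6 and 15.6 CPM on plastic. At 100 nM FOSL1 had 21.3, 23.7 and 26.3 CPM on gel, against 11.4, 25.3 and 25.4 CPM on plastic, where replicate 1 was low. FOSL2 ranged from 24.7 to 38.6 CPM on gel and from 27.2 to 42.6 CPM on plastic at 250 nM, and from 27.8 to 35.7 CPM on gel and from 35.0 to 42.3 CPM on plastic at 100 nM. Both genes overlapped between substrates at each dose. The intervals were the narrowest of the 10 members for FOSL2, whose log2 difference was -0.15 at 250 nM (95% interval -0.65 to 0.35; edgeR, adjusted p = 0.871) and -0.28 at 100 nM (-0.76 to 0.19; adjusted p = 0.727). For FOSL1 it was 0.14 at 250 nM (-0.58 to 0.85; edgeR, adjusted p = 0.928) and 0.20 at 100 nM (-0.44 to 0.85; adjusted p = 0.876).

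**Figure D2:**
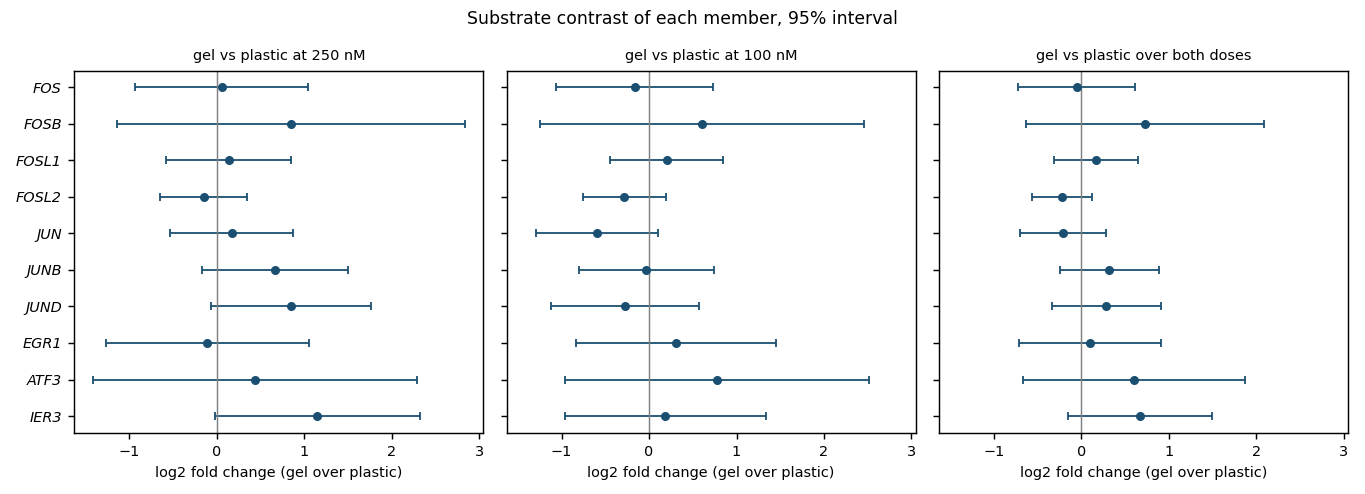
Log2 difference between gel and plastic for each member, with its 95% interval from edgeR, at 250 nM, at 100 nM and averaged over both doses. Every interval crosses 0; FOSL2 has the narrowest and FOSB and ATF3 the widest.

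JUN, the main DNA-binding partner of AP-1, stood out in 1 plastic library. At 250 nM it had 336, 196 and 176 CPM on gel, against 196, 244 and 188 CPM on plastic. At 100 nM it had 233, 247 and 246 CPM on gel, against 594, 261 and 239 CPM on plastic. The 3 gel libraries at 100 nM lay close together, and the high plastic value was that of replicate 1. That library had a low ribosomal DNA share, whose part in the value was not tested. The log2 difference was 0.17 at 250 nM (95% interval -0.53 to 0.88; edgeR, adjusted p = 0.899). At 100 nM it was -0.59 (-1.29 to 0.11; edgeR, adjusted p = 0.572), and -0.04 when replicate 1 of plastic was left out (adjusted p = 0.995).

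JUNB, which in many settings holds back JUN-driven proliferation, had 47.4, 30.5 and 30.2 CPM on gel at 250 nM, against 39.1, 16.8 and 12.5 CPM on plastic. JUNB at 100 nM had 37.8, 55.2 and 43.3 CPM on gel, against 59.5, 30.4 and 49.2 CPM on plastic. At 250 nM the 3 gel libraries were above replicates 2 and 3 of plastic, and replicate 1 of plastic lay among them. The log2 difference was 0.66 at 250 nM (95% interval -0.17 to 1.50; edgeR, adjusted p = 0.603) and -0.03 at 100 nM (-0.80 to 0.74; adjusted p = 0.989). Without replicate 1 of plastic it was 1.31 at 250 nM (edgeR, adjusted p = 0.319), and without replicate 3 of plastic 0.36 (adjusted p = 0.870). JUND, the JUN protein most abundant in resting cells of many types, had 53.0, 16.0 and 22.2 CPM on gel at 250 nM, against 23.1, 10.7 and 17.2 CPM on plastic. At 100 nM JUND had 31.4, 22.0 and 23.3 CPM on gel, against 35.1, 19.9 and 37.8 CPM on plastic. Its high gel value was again replicate 1, and the groups overlapped at both doses. The log2 difference of JUND was 0.85 at 250 nM (95% interval -0.07 to 1.76; edgeR, adjusted p = 0.530), 0.14 without replicate 1 of gel, and -0.28 at 100 nM (-1.12 to 0.57; adjusted p = 0.871).

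ATF3, a stress-induced partner of JUN that is also a p53 target, was even on gel and uneven on plastic. At 250 nM it had 19.1, 15.5 and 14.7 CPM on gel, against 28.8, 2.34 and 5.08 CPM on plastic. At 100 nM it had 11.6, 13.6 and 17.5 CPM on gel, against 1.86, 2.31 and 21.0 CPM on plastic. The 6 gel libraries lay between 11.6 and 19.1 CPM, 4 plastic libraries lay below all of them and the other 2 above all of them. Counts behind the low plastic values were few, down to 5 in replicate 2 at 250 nM and 14 in replicate 1 at 100 nM. The log2 difference was 0.44 at 250 nM (95% interval -1.41 to 2.29; edgeR, adjusted p = 0.904) and 0.77 at 100 nM (-0.97 to 2.51; adjusted p = 0.812). Leaving out the high plastic library gave 2.12 at 250 nM (edgeR, adjusted p = 0.574) and 2.76 at 100 nM (adjusted p = 0.181). Leaving out a low one gave -0.04 without replicate 2 at 250 nM and 0.30 without replicate 1 at 100 nM (edgeR, adjusted p = 0.998 and 0.993).

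EGR1, the zinc finger factor induced through SRF, had 206, 134 and 118 CPM on gel at 250 nM, against 339, 75.2 and 79.8 CPM on plastic. At the lower dose EGR1 had 362, 251 and 211 CPM on gel, against 174, 115 and 377 CPM on plastic. As for ATF3, replicate 1 of plastic at 250 nM and replicate 3 of plastic at 100 nM were higher than every gel library of their dose, and the other plastic libraries were lower than every one. The log2 difference was -0.11 at 250 nM (95% interval -1.27 to 1.05; edgeR, adjusted p = 0.967) and 0.31 at 100 nM (-0.84 to 1.45; adjusted p = 0.900). Without those plastic libraries, each left out in turn, it was 0.98 at 250 nM (edgeR, adjusted p = 0.580) and 0.93 at 100 nM (adjusted p = 0.557). Leaving out replicate 2 of plastic instead gave -0.45 at 250 nM and -0.0039 at 100 nM (edgeR, adjusted p = 0.899 and 0.999).

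IER3, an immediate early gene whose product acts on apoptosis and ERK signalling and is also a target of NF-kB, held the highest single value. At 250 nM it had 1116, 233 and 199 CPM on gel, against 299, 208 and 192 CPM on plastic. IER3 at 100 nM had 345, 142 and 159 CPM on gel, against 225, 151 and 191 CPM on plastic. Replicate 1 was the highest library in all 4 groups, and the other 2 gel libraries lay within or below the range of plastic at each dose. The log2 difference at 250 nM was 1.15 (95% interval -0.03 to 2.32; edgeR, adjusted p = 0.508), and -0.14 when replicate 1 of gel was left out (adjusted p = 0.968). At 100 nM it was 0.19 (-0.97 to 1.34; edgeR, adjusted p = 0.948). With no filter on low counts, edgeR called IER3 at 250 nM (adjusted p = 0.00258) and over both doses (adjusted p = 0.0172). That replicate of gel at 250 nM is the library with the low ribosomal DNA share, whose part in the value was not tested.

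The spread within groups was wide for several members. The SD of log2 CPM within groups, pooled over the 4 groups, was 1.37 for FOSB and 1.26 for ATF3, larger than in 98.2% and 97.4% of tested genes, whose median was 0.42. For EGR1 and IER3 it was 0.80 each, larger than in 85.0% and 84.9% of tested genes and in 98.1% of genes of similar expression for each. FOS had 0.66, JUND 0.59 and JUNB 0.54, JUN had 0.45 and FOSL1 0.41. In that order, these were larger than in 77.0%, 70.6%, 65.2%, 54.7% and 48.3% of tested genes. Among genes of similar expression, the shares were 92.9%, 89.5%, 89.6%, 83.5% and 63.2%. FOSL2, with 0.25, was steadier than most genes, since 18.2% of tested genes and 35.8% of genes of similar expression had a smaller SD.

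**Figure D3:**
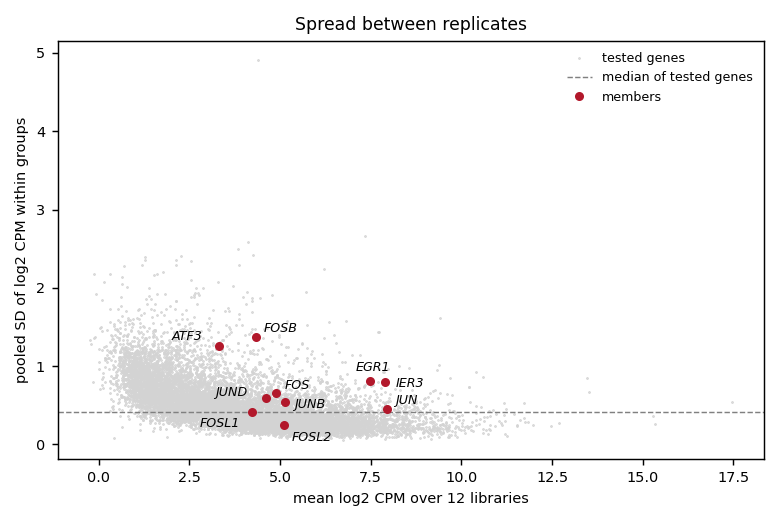
Pooled within-group SD of log2 CPM (vertical axis) against mean log2 CPM (horizontal axis) for all tested genes in grey and the 10 members in red; the dashed line is the median SD of tested genes, 0.42. FOSB and ATF3 lie near the top of the cloud, EGR1 and IER3 near its top at their level, and FOSL2 below the line.

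The high values fell in the same libraries for many members. Replicate 1 was the highest of gel at 250 nM in 9 of 10 members, against 39.9% of tested genes, and the highest of plastic at 250 nM in 8 of 10, against 38.2%. Replicate 2 of plastic at 100 nM was the highest in 0 of 10, against 28.3% of tested genes, while replicates 1 and 3 were the highest in 5 each. The gel libraries at 100 nM were more even, with 4, 4 and 2 members highest in replicates 1, 2 and 3. Among the 28 tested genes of a list of other immediate early genes, replicate 1 was the highest of plastic at 250 nM in 17 and of plastic at 100 nM in 16, and replicate 2 of plastic at 100 nM in 1. In gel at 250 nM the same list had 12 genes highest in replicate 1, 5 in replicate 2 and 11 in replicate 3. Replicate 1 of plastic at 250 nM had a ribosomal DNA share of 25.0% and a mitochondrial share of 4.24%, both within the range of the other libraries.

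**Figure D4:**
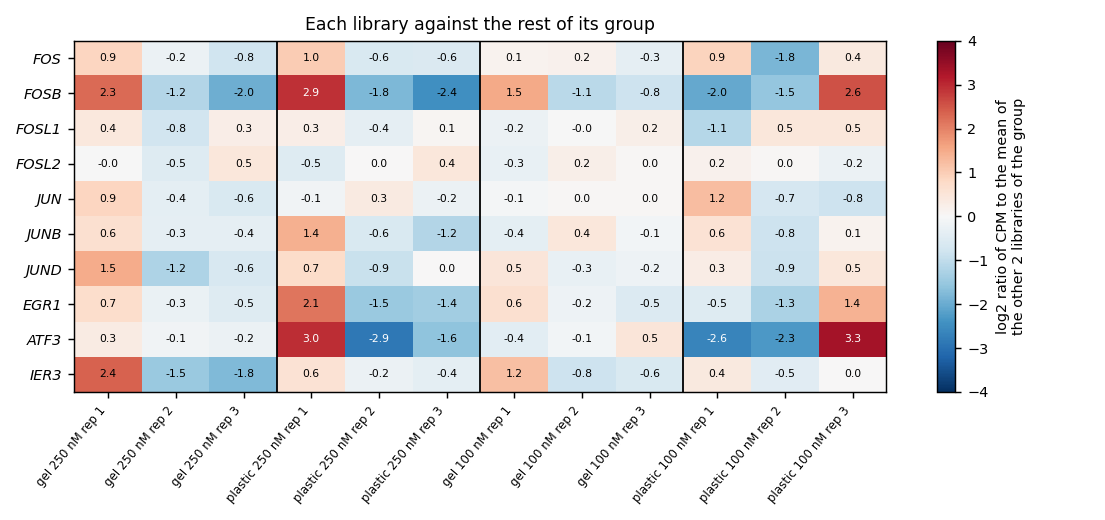
Log2 ratio of each library's CPM to the mean of the other 2 libraries of its group, for each member (rows) and library (columns); red is higher and blue lower. Columns of replicate 1 at 250 nM are red for most members on both substrates, and that of replicate 2 of plastic at 100 nM is blue for most.

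By the root-mean-square difference of log2 CPM, each gene centred within its dose, over the 12 libraries, the closest pattern to FOSB was that of HES1 (0.47), a Notch-responsive repressor, followed by RGS17 (0.60) and MIR23AHG (0.60). The closest to ATF3 was also HES1 (0.55), then MIR23AHG (0.61) and NR4A2 (0.69), itself an immediate early gene. For EGR1 the closest were PCDHGA12 (0.23), IER2 (0.30), another immediate early gene, and ARID3A (0.31). For IER3 they were ST3GAL6 (0.21), ACVRL1 (0.26) and CD82 (0.26), and for JUN NUDT16L1 (0.14), SLC39A13 (0.15) and RPS27 (0.16). FOS was closest to C3orf18 (0.26), JUNB to FAH (0.21), JUND to RHOT2 (0.18), FOSL1 to MIOS (0.14) and FOSL2 to MED28 (0.11). Within the 10, FOS and JUNB were nearest to each other (0.40), as were JUND and IER3 (0.39), and FOSB (0.68) and ATF3 (0.76) were nearest to EGR1. A gene flat within each dose would lie at 0.54 from FOS, 0.52 from JUNB, 0.55 from JUND and 0.70 from IER3. From FOSB and ATF3 it would lie at 1.22. The nearest members of JUN (0.41), FOSL1 (0.43) and FOSL2 (0.41) were no closer than such a flat gene (0.41, 0.35 and 0.24).

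The make-up of the families by TPM was led by JUN. JUN took 67.0% ± 2.81 of JUN family TPM on gel and 75.1% ± 10.0 on plastic at 250 nM, and 65.7% ± 1.66 on gel and 71.1% ± 9.08 on plastic at 100 nM (SD, n = 3 each). JUNB took 19.0% ± 1.96 on gel and 14.3% ± 7.65 on plastic at 250 nM, and 22.3% ± 3.41 on gel and 17.5% ± 4.54 on plastic at 100 nM. For JUN the differences in share between substrates were smaller than the SD of the plastic groups. In the FOS family at 250 nM, FOS took 30.5% ± 5.43 on gel and 35.0% ± 3.05 on plastic, and FOSL1 took 30.5% ± 8.06 on gel and 31.6% ± 7.49 on plastic. At 100 nM FOS had the largest mean share, 42.2% ± 4.37 on gel and 45.9% ± 19.1 on plastic, followed by FOSL1 with 25.1% ± 7.25 on gel and 27.2% ± 14.7 on plastic. The JUN family total was 1.40 to 4.50 times that of the FOS family, and the highest ratio was in replicate 1 of plastic at 100 nM.

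**Figure D5:**
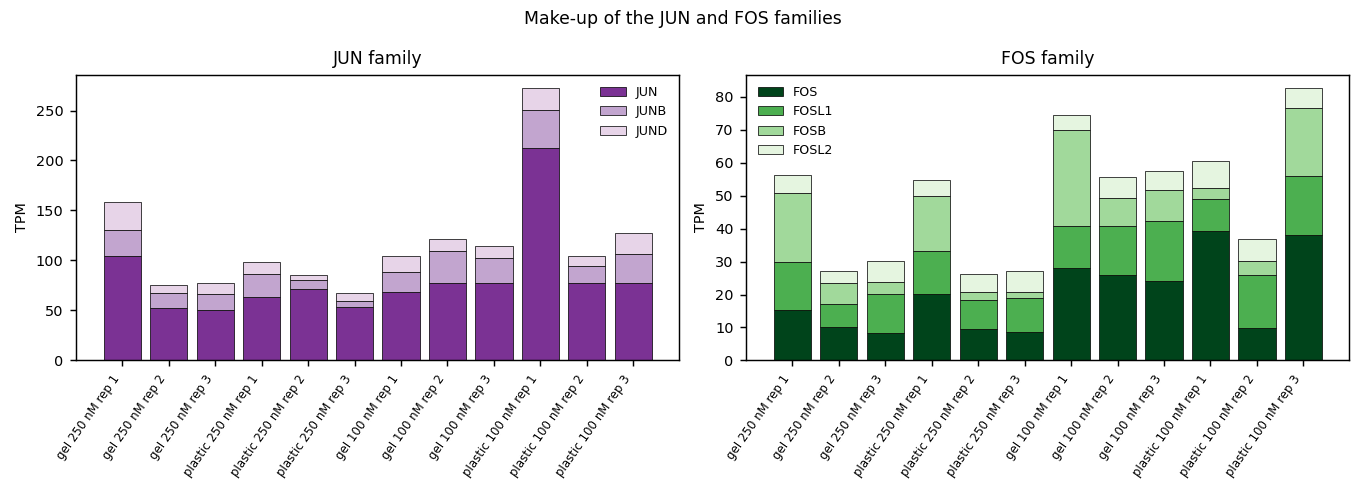
TPM of the JUN family (left) and the FOS family (right) in each library, stacked by member. The tallest JUN bar, 272 TPM, is replicate 1 of plastic at 100 nM, and FOSB takes a visible part of the FOS bar in single libraries of each group.

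Between doses, 0 of 10 members were called on plastic, where 8.52% of all genes were called, and 0 of 10 on gel, where 13.8% were called (edgeR, adjusted p under 0.05). DESeq2 called 0 of 10 on either substrate, and edgeR with no filter on low counts called 3 on each. That fit called 5.04% of its 28787 genes on plastic and 7.83% on gel, and 11.5% and 17.4% of the 12329 genes that pass the filter. On plastic 3 members had an unadjusted p under 0.05, against 25.9% of all genes, and on gel 1, against 31.4%. The median log2 difference, 250 over 100 nM, was -0.44 on plastic with 8 of 10 negative and -0.09 on gel with 7 of 10 negative, and over all tested genes it was -0.03 and -0.02. Groups did not overlap in 0 of 10 members on plastic, against 35.8% of all genes, and in 3 of 10 on gel, against 35.8%; all 3 were lower at 250 nM, as were 19.3% of all genes. These were FOS, FOSL1 and EGR1.

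FOS averaged 22.0 ± 8.67 CPM at 250 nM and 42.0 ± 5.57 CPM at 100 nM on gel (SD, n = 3 each), a log2 difference of -0.92 (95% interval -1.87 to 0.03; edgeR, adjusted p = 0.170). On plastic it averaged 21.4 ± 9.34 CPM at 250 nM and 47.1 ± 26.4 CPM at 100 nM, a log2 difference of -1.14 (-2.09 to -0.19; edgeR, adjusted p = 0.122), and -1.53 when replicate 2 of the lower dose was left out (adjusted p = 0.0377). JUNB on plastic averaged 22.8 ± 14.3 CPM at 250 nM and 46.4 ± 14.8 CPM at 100 nM, a log2 difference of -1.02 (-1.84 to -0.21; edgeR, adjusted p = 0.107), and -1.67 when replicate 1 of the higher dose was left out (adjusted p = 0.0184). With the filter on low counts, both genes were thus called when that 1 library was left out and not with all libraries. FOS was -0.76 without replicate 1 of plastic at 100 nM (edgeR, adjusted p = 0.363). JUNB was -0.72 without replicate 3 of plastic at 250 nM (edgeR, adjusted p = 0.339). JUN on plastic, at 209 ± 30.2 CPM at 250 nM and 365 ± 199 CPM at 100 nM, had a log2 difference of -0.80 (-1.51 to -0.10; edgeR, adjusted p = 0.140), which was -0.25 without replicate 1 of plastic at 100 nM. IER3 on gel, at 516 ± 520 CPM at 250 nM and 215 ± 113 CPM at 100 nM, had a log2 difference of 1.26 (0.09 to 2.43; edgeR, adjusted p = 0.131), which was -0.02 without replicate 1 of gel at 250 nM. EGR1 on gel averaged 153 ± 47.1 CPM at 250 nM and 275 ± 78.4 CPM at 100 nM, a log2 difference of -0.84 (-2.00 to 0.31; edgeR, adjusted p = 0.303). With no filter on low counts edgeR called FOS (adjusted p = 0.00216), JUNB (0.00633) and JUN (0.0158) on plastic, and IER3 (0.000138), EGR1 (0.00679) and FOS (0.0135) on gel.

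Genes around AP-1 were counted in 5 lists of 102 genes. Of other bZIP factors 0 of 7 tested were called in the gel comparisons, and 1 of 7 in the dose comparison on gel, a share like the 13.8% of all genes. It was JDP2, a dimer partner of JUN. JDP2 had 43.4, 22.7 and 23.9 CPM at 250 nM, against 6.86, 11.6 and 12.5 CPM at 100 nM, 2.91-fold higher (edgeR, adjusted p = 0.0184, called in 16 of 22 settings).

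Of the other immediate early genes 0 of 28 tested were called between gel and plastic at either dose. CCN1, a matricellular protein gene and SRF target, had 207, 616 and 408 CPM on gel at 100 nM, against 2541, 668 and 771 CPM on plastic (edgeR, adjusted p = 0.226). PTGS2, the inducible cyclooxygenase, had 121, 9.99 and 15.3 CPM on gel at 100 nM, against 9.70, 7.25 and 7.25 CPM on plastic (edgeR, adjusted p = 0.235). In PTGS2 the groups did not overlap, as in 19.0% of all genes at that dose, and the gel mean rests on replicate 1. Between doses 6 of 28 fell on plastic, where 8.52% of all genes were called in either direction, and on gel 5 fell and 1 rose, where 13.8% were. PLK2, a polo-like kinase and p53 target, fell on both substrates. On gel it had 27.6, 31.4 and 37.3 CPM at 250 nM, against 60.0, 66.9 and 63.5 CPM at 100 nM, 1.98-fold lower (edgeR, adjusted p = 0.00920). On plastic it was 2.04-fold lower (edgeR, adjusted p = 0.0108). KLF10 fell on plastic, to 25.1, 16.4 and 15.6 CPM at 250 nM, against 75.6, 50.7 and 41.0 CPM at 100 nM (2.93-fold; edgeR, adjusted p = 0.00975). KLF2 fell on gel (2.77-fold; edgeR, adjusted p = 0.0151), and SRF itself rose on gel (1.90-fold, adjusted p = 0.0188, called in 16 of 22 settings). CCN1 fell on plastic (4.30-fold; edgeR, adjusted p = 0.0197), with a log2 difference of -2.11 that was -1.21 without replicate 1 at 100 nM, and was called in 17 of 22 settings. EGR3 on gel had 0, 1 and 1 counts at 250 nM, against 33, 15 and 19 counts at 100 nM, and was called lower (edgeR, adjusted p = 0.0257, called in 17 of 22 settings).

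Among the feedback inhibitors of the kinase pathways 0 of 18 tested were called between gel and plastic. SPRY2, an inhibitor of receptor tyrosine kinase signalling, had 44.6, 26.6 and 32.8 CPM on gel at 100 nM, against 12.6, 8.17 and 21.9 CPM on plastic (edgeR, adjusted p = 0.222), with no overlap. DUSP4, an ERK phosphatase, had 4.34, 6.02 and 10.4 CPM on gel, against 3.06, 1.08 and 0.946 CPM on plastic at that dose (adjusted p = 0.226), also with no overlap. Its plastic values rest on 23, 7 and 6 counts. Of all genes 19.0% had groups that did not overlap at that dose. Between doses 1 of 18 was called on plastic, where 8.52% of all genes were called, and 1 of 18 on gel, where 13.8% were. It was DUSP10, a phosphatase of JNK and p38, on both substrates. On gel it had 3.62, 8.70 and 6.71 CPM at 250 nM, against 14.1, 32.0 and 30.7 CPM at 100 nM, 4.13-fold lower (edgeR, adjusted p = 0.00697). On plastic it was 3.21-fold lower (edgeR, adjusted p = 0.0157).

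Of upstream kinases and SRF partners 0 of 23 tested were called between gel and plastic. Between doses 3 of 23 fell on plastic, where 8.52% of all genes were called, and on gel 2 fell and 2 rose, where 13.8% were, so that the list's share lay near that of all genes. ELK1, a ternary complex factor that acts with SRF, fell on plastic (3.70-fold; edgeR, adjusted p = 0.0120) with NRAS (2.71-fold, adjusted p = 0.0150) and MAPK9, the gene of JNK2 (2.26-fold, adjusted p = 0.0407). Their calls held in 20, 19 and 11 of 22 settings. On gel HRAS rose, to 30.9, 20.8 and 31.5 CPM at 250 nM, against 9.57, 11.8 and 11.4 CPM at 100 nM (2.54-fold; edgeR, adjusted p = 0.00969). MAP2K2, the gene of MEK2, rose on gel as well (1.83-fold; edgeR, adjusted p = 0.0260, called in 14 of 22 settings), at a log2 difference of 0.87 that was 0.51 without replicate 1 of gel at 250 nM. ELK4 (3.26-fold; edgeR, adjusted p = 0.0486) and NRAS (2.00-fold, adjusted p = 0.0454) fell on gel, with calls in 9 and 7 of 22 settings.

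Of known AP-1 target genes 12 of 16 were tested, and 2, the collagenase MMP1 and the stromelysin MMP3, were called between gel and plastic at 100 nM and over both doses, where 0.227% and 0.754% of all genes were called. MMP1 had 552, 263 and 333 CPM on gel at 100 nM, against 75.2, 63.7 and 42.7 CPM on plastic, 6.31-fold higher (edgeR, adjusted p = 0.00329). Over both doses it was 4.07-fold higher on gel (edgeR, adjusted p = 0.000876), and it was called there in 21 of 21 settings. MMP3 had 154, 11.2 and 21.9 CPM on gel at 100 nM, against 2.26, 0.463 and 0.473 CPM on plastic (edgeR, adjusted p = 0.0332, called in 8 of 22 settings). Its log2 difference of 5.77 was 3.87 without replicate 1 of gel. Over both doses MMP3 was called in 21 of 21 settings (edgeR, adjusted p = 0.00954), at a log2 difference of 4.25 that was 3.30 without that library. At 250 nM 12 of 12 tested targets had a positive log2 difference on gel and 0 were called, with a median of 0.44 beside -0.02 over all genes. That count includes replicate 1 of gel, the library with the low ribosomal DNA share. At 100 nM 9 were positive and 3 negative, with a median of 0.33 beside -0.01 over all genes. Over both doses 10 were positive and 2 negative. TIMP1, an inhibitor of these proteases, had 783, 409 and 556 CPM on gel at 250 nM, against 297, 230 and 264 CPM on plastic (edgeR, adjusted p = 0.201). Between doses MMP1 rose on plastic (2.24-fold; edgeR, adjusted p = 0.0263, called in 16 of 22 settings) and PLAU, the urokinase gene, fell there (7.83-fold, adjusted p = 0.0181, called in 18). PLAU had 300, 43.0 and 43.8 CPM on plastic at 100 nM, and its log2 difference of -2.97 was -1.39 without replicate 1 of that group. In the same fit 0 of the 10 members were called.

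Some members share their locus with other genes, and the strand setting of the counting is not given. FOSB (chromosome 19, 45467995 to 45475179, GRCh38, GENCODE 29) overlaps ERCC1 on the opposite strand, at a mean of 24.7 CPM. JUNB (chromosome 19, 12791496 to 12793315) overlaps HOOK2, which reached 44.1 CPM in replicate 1 of gel at 250 nM. IER3 (chromosome 6, 30743199 to 30744554) overlaps IER3-AS1, at a mean of 17.2 CPM, and was the member with fractional counts. FOSL2 (chromosome 2, 28392448 to 28417312) overlaps FOSL2-AS1, at a mean of 0.474 CPM. Without strand, reads of these genes cannot be told apart where they overlap. EGR1 lies on chromosome 5 at 138465490 to 138469315, JUN on chromosome 1 at 58780788 to 58784327, and ATF3 on chromosome 1 at 212565334 to 212620777. FOS lies on chromosome 14 at 75278774 to 75282230, FOSL1 on chromosome 11 at 65892049 to 65900573 and JUND on chromosome 19 at 18279760 to 18281622.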

How the data were processed

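One gene table for each of 12 libraries was analysed, with groups named as in the sample titles. Doses are in nM in the titles but in µM in the treatment protocol, and the soft substrate is a hydrogel in the design but a PDMS coating in the growth protocol. DESeq2 1.36.0, RSEM, STAR and Trimmomatic, and the build GRCh38, are listed in the submitters' processing notes, without roles. The other versions, the annotation, the strand setting and any use of molecular identifiers, which the 250 nM file names mention, are not given in the sources here.

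The expected counts were deposited as RSEM estimates per gene, per the file headers, in reads that need not be whole. TPM values stood in the same deposited tables, scaled for effective length and library total by RSEM, per the file headers. The FPKM and length columns deposited by the authors were not used. Symbols came from the supplied name table, which matched 61369 of 61541 identifiers, and coordinates from GENCODE 29, which matched 58366.

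Expected counts were rounded and tested in R 4.3.3 with edgeR 4.0.16 (filterByExpr, TMM, 1 mean per group, quasi-likelihood with 8 residual degrees of freedom, common biological coefficient of variation 0.299), adjusted by Benjamini-Hochberg over 12329 genes and called under 0.05. Folds and log2 differences are fitted by edgeR, and intervals are 95%. CPM are counts over the TMM-scaled library size, and log2 CPM used a prior count of 2. Alternatives were RLE size factors, no filter, DESeq2 1.42.0, limma-trend (limma 3.58.1) on log2(TPM + 1) and log2(TPM + 0.1), only the groups compared, a replicate block, thinning to 2229060 counts and leaving out each library.

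The members, the lists and the tests were chosen with earlier results of these data known. Genes of a list were named if called with a mean of at least 1 CPM (up to 4, smallest p first), or, where none was called, as the 2 with the smallest p, and some of these are not reported here. Likeness was measured against genes with a mean of at least 5 CPM. The counts of which library was highest in its group were added after the values were seen.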

Additional observations from a re-analysis of the deposited data

How the results depend on the processing

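Of 990 recomputed log2 differences of single members, 918 kept their direction and their side of the threshold, 61 turned direction and 11 passed the threshold. Many of the 918 left out a library outside the groups compared, where the difference hardly moves because each group has its own mean. For example, FOS at 100 nM stayed at -0.16 without any 1 library of plastic at 250 nM. The difference of the gel contrast between doses is not among the 990. Its direction turned in 0 (JUNB, JUND) to 8 (FOSB) of 21 settings. The number of all genes called moved more than the calls of members. For gel against plastic at 250 nM, at 100 nM and over both doses, where 1, 28 and 93 were called, it was 231, 335 and 573 with no filter on low counts, 89, 148 and 339 with DESeq2, 3, 7 and 53 with log2(TPM + 1), and 4, 9 and 44 with log2(TPM + 0.1). With only the libraries of the groups compared it was 0 at 250 nM, 5 at 100 nM, and 443 in place of 1703 for dose on gel. With the replicate block it was 9 at 100 nM and 39 over both doses. Deviations from group means were correlated between same-numbered gel and plastic libraries. The values for replicates 1, 2 and 3 were -0.21, 0.14 and -0.24 at 100 nM and 0.11, 0.06 and 0.04 at 250 nM. The best match under another number gave 0.39, 0.16 and 0.13 at 100 nM and -0.05, 0.05 and 0.06 at 250 nM. As the labels do not say what a number marks, these values do not settle whether libraries were paired. The block called 0 members in any comparison. Without filter 129 genes were called for the difference between doses, and log2(TPM + 0.1) called 594 in place of 1050 for dose on plastic. Members called were 0 in every comparison, and with no filter 1 at 250 nM, 2 over both doses and 3 for dose on each substrate. Without replicate 1 of plastic at 100 nM and of gel at 250 nM, an alternative chosen after seeing the data, 7, 57 and 203 genes were called in the gel comparisons and 2128 for dose on plastic, with 1 member, FOSL1 (adjusted p = 0.0488). Some log2 differences of members turned direction under other settings. FOS at 100 nM was 0.070 with log2(TPM + 1), 0.085 with log2(TPM + 0.1) and 0.012 with the replicate block, and FOS at 250 nM was -0.12 and -0.13 on those TPM scales and 0.031 over both doses with the block. EGR1 at 250 nM was 0.17 and 0.18 on the TPM scales and 0.22 with the block. JUNB at 100 nM was 0.0016 with the block and 0.0066 after thinning. For dose on gel, JUND was -0.0059 and -0.019 on the TPM scales, and after thinning FOSL2 was 0.093 and JUN 0.0016. Leaving out 1 library at a time gave these ranges, with the fewest genes for dose on plastic without replicate 2 of plastic at 250 nM, for dose on gel without replicate 1 of gel at 100 nM, for gel against plastic at 100 nM and over both doses without replicate 3 of gel at 100 nM (over both doses equally without replicate 2 of plastic at 250 nM), and the most in those 2 and for dose on plastic without replicate 1 of gel at 250 nM. For gel against plastic at 250 nM, 1 to 2 genes were called, and the log2 differences that turned ran over FOS -0.34 to 0.48, FOSB -0.39 to 2.53, FOSL1 -0.045 to 0.34, FOSL2 -0.31 to 0.016, JUN -0.20 to 0.35, EGR1 -0.45 to 0.98, ATF3 -0.038 to 2.12 and IER3 -0.14 to 1.53. For gel against plastic at 100 nM, 3 to 104 genes were called, and the log2 differences that turned ran over FOS -0.56 to 0.21, FOSB -0.089 to 1.99, FOSL1 -0.083 to 0.38, JUNB -0.26 to 0.20, EGR1 -0.0039 to 0.93 and IER3 -0.33 to 0.41. For gel against plastic over both doses, 40 to 253 genes were called, and the log2 differences that turned ran over FOS -0.25 to 0.16, JUN -0.39 to 0.067, JUND -0.066 to 0.43 and EGR1 -0.073 to 0.64. For 250 against 100 nM on gel, 606 to 1797 genes were called, and the log2 differences that turned ran over FOSB -1.39 to 0.54, FOSL2 -0.18 to 0.13, JUN -0.41 to 0.14, JUND -0.44 to 0.57 and IER3 -0.023 to 1.78. For 250 against 100 nM on plastic, 132 to 2282 genes were called, and the log2 differences that turned ran over FOSB -2.08 to 0.99, FOSL2 -0.32 to 0.0016, EGR1 -1.52 to 0.19 and ATF3 -1.13 to 2.53. The number of members called was 0 or 1 for dose on plastic and 0 in the other comparisons. ATF3 had only 5 counts in 1 library, and the intervals of FOSB, ATF3 and, at 250 nM, IER3 do not exclude 4-fold differences between substrates.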
